A study of Mus musculus with 2 samples.

Results

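Retinoic acid is a hormone-like derivative of vitamin A that patterns the early embryo and drives stem cells out of the undifferentiated state. The genes described here make it, carry it, break it down or respond to it: Stra6, Crabp1, Crabp2, Aldh1a1, Aldh1a2, Aldh1a3, Cyp26a1, Rara and Rarb. They were listed by name, and every probe set that names 1 of them alone was taken, which gave 11 probe sets for 9 genes out of 34945 probe sets and 18193 genes measured. Signals were compared between undifferentiated PGK12.1 cells at day 0 and cells of that line 15 days into differentiation as embryoid bodies. Each condition has 1 array.

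Retinol enters cells in part through the membrane receptor STRA6, is oxidised to retinal, and is then turned into retinoic acid by the retinaldehyde dehydrogenases ALDH1A1, ALDH1A2 and ALDH1A3. Inside the cell the acid is bound by CRABP1 and CRABP2, of which CRABP2 hands it to receptors in the nucleus, and it is cleared by the cytochrome P450 CYP26A1. The receptors RARA and RARB bind DNA together with a retinoid X receptor, at response elements built from repeated hexamers. Rarb and Cyp26a1 are textbook direct targets that the acid switches on in embryonic stem cells and embryonal carcinoma cells.

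PGK12.1 is a single female mouse embryonic stem cell line, made from blastocysts of a 129 mother and a (129 X PGK)F1 father, and used at passages 14 to 18. Undifferentiated cells were kept in leukemia inhibitory factor on embryonic fibroblast feeders, which were depleted on gelatin ahead of RNA collection, and the same depletion preceded differentiation. No genotype change, added retinoic acid or other agent is named for either group in the labels. Embryoid bodies are mixed aggregates, and in such bulk RNA fewer cells of a type and less RNA per cell cannot be told apart.

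The start regions of Rarb and Cyp26a1 are printed because each holds a DR5, the direct repeat that retinoic acid receptors are known to bind: hexamers in the same orientation with 5 bases between them. The hexamer was searched on both strands with the letters AGGTCA, with AGTTCA, with GGGTCA or with GGTTCA, and matches that overlap one another were all counted. The lines below give the 250 bases before each start site, 5′ to 3′ on the gene's own strand, from RefSeq (GRCm38.p6), with the DR5 hexamers in capitals. Rarb lies at chr14:16575477-16575726 on the minus strand and Cyp26a1 at chr19:37697558-37697807 on the plus strand.
Rarb: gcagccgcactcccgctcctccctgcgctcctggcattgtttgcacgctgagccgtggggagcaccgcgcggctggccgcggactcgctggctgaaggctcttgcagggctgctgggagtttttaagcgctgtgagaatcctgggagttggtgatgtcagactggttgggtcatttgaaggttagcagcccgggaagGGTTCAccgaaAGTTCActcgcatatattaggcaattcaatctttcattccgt
Cyp26a1: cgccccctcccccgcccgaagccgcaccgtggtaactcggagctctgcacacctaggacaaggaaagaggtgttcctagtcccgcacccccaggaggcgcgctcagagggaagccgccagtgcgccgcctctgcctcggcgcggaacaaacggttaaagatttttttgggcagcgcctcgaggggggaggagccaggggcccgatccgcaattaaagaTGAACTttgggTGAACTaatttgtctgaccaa

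The Rarb element reads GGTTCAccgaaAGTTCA and runs from base -53 to base -37, with the start site counted as 0. The Cyp26a1 element lies on the opposite strand of its gene, from base -32 to base -16, and reads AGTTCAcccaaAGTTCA there. The elements are identical at 15 of 17 bases. Among all 32851 start windows of 300 bases (250 before and 50 after the start), 0.0974% held a DR5, and 43.7% held at least 1 hexamer. A match is a description of these letters and does not show that a receptor was bound.

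Start windows were present in the RefSeq table for 7 of the 9 genes, 14 windows in all, of which some of Rara and of Stra6 overlap. Crabp2 and Aldh1a3 had none. Of the 14 windows 6 held a hexamer, 1 of them for Aldh1a1, 2 for Rara and 1 for Stra6 beside those of Rarb and Cyp26a1. None held a DR2 or DR1, the repeats with 2 bases or 1 base between hexamers, which stood in 0.268% and 0.222% of all windows. The Aldh1a2 window was 78.0% G and C with 50 CpG dinucleotides and the Aldh1a1 windows were 43.3% and 47.0% G and C with 3 and 1, against a median of 52.7% and 7 over all windows.

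**Figure D1:**
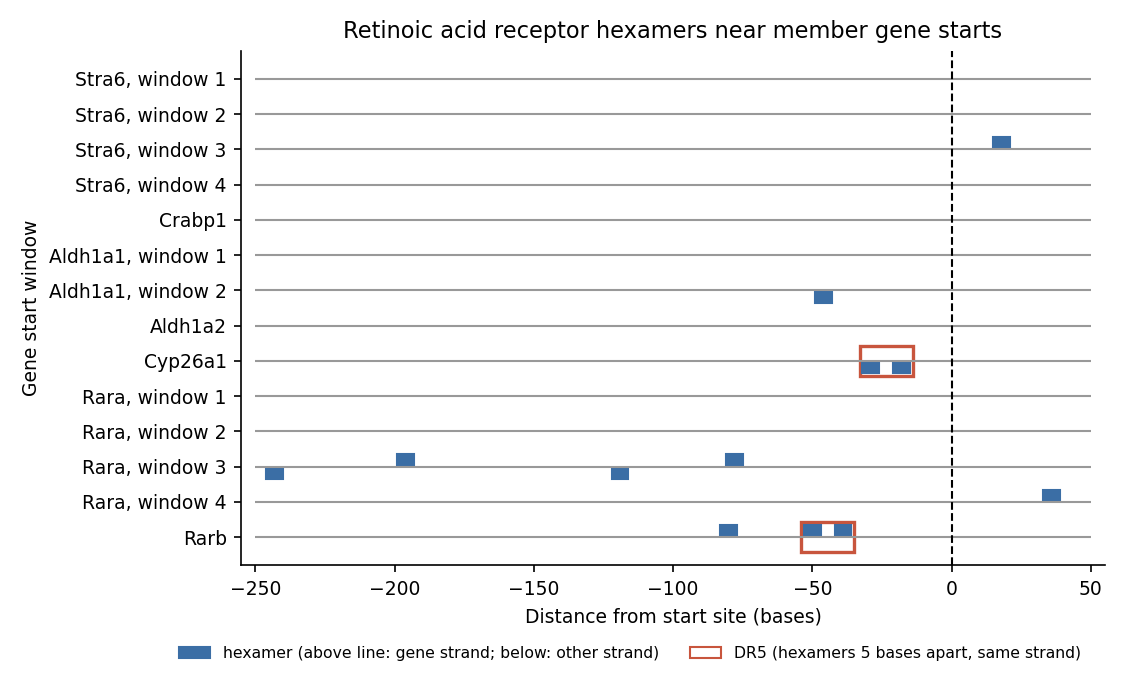
Position of receptor hexamers in each start window of the member genes, as distance in bases from the start site (dashed line); blue boxes above a line are on the gene's strand and those below it on the other strand, and red frames mark a DR5. Only the Rarb and Cyp26a1 windows among these 14 hold a DR5, both within 53 bases before the start.

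The retinoid genes split into 3 that were higher at day 15 and 6 that stayed within 2-fold. Rarb, Aldh1a1 and Crabp2 were at least 2-fold higher, and 0 of the 9 were at least 2-fold lower. A call of 2-fold was read on log2(signal + 16), which damps dim signals, and all log2 differences below are day 15 minus undifferentiated on that scale. Of all measured genes 12.8% were higher by that size and 7.56% lower by it, so 3 genes of 9 is a small number to set beside that background. With 1 array per condition no difference has a replicate error, a test or a p-value.

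Signals were read against an expression filter at the median probe set, near a signal of 36.5, and against the 15 bacterial control probe sets without target RNA, which reached at most 35.6. Above the filter stood 6 of the 9 genes, of which 2 were at least 2-fold higher and 4 within 2-fold, where 16.5% of 11960 genes above the filter were higher and 8.41% lower. Rarb passed it only through its day 15 signal, while Aldh1a1 fell just short, at a mean log2 value of 5.65 against 5.72. Aldh1a3 and Stra6 were the others below it. For a signal pair with its dimmer value under 35.6 the fold divides the brighter value by 35.6 and reads "at least", and pairs wholly under 35.6 get no fold.

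Rarb, the beta receptor gene whose start region carries the first DR5 shown above, had the largest fold that these signals bound from below. Its single probe set read 2.7 in undifferentiated cells and 269.6 at day 15. That is at least 7.57-fold higher, with a log2 difference of 3.93 as deposited and at least 2.47 with the dimmer signal raised to 35.6. The undifferentiated signal lay inside the range of the controls without target and the day 15 signal well above it.

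Rara, the alpha receptor gene, went the other way by a small amount. It read 158.3 undifferentiated and 119.1 at day 15, a ratio of 1.33 with a log2 difference of -0.37, and 29.7% of all measured genes were lower by as much or more. Both signals stood above the controls without target, so the pair of receptor genes had differing profiles: Rara was measured on both arrays and Rarb at day 15 alone.

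Cyp26a1, the gene of the clearing enzyme and the other holder of a DR5, was dim on both arrays. It read 42.4 and 68.9, a ratio of 1.63 and a log2 difference of 0.54, which 23.8% of all measured genes matched or passed. Both values lay less than 2-fold above the highest control without target. The members with a DR5 therefore differed in size, with Rarb at least 7.57-fold and Cyp26a1 1.63-fold higher, and no test of that difference is possible with single arrays.

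Among the binding proteins, Crabp2 was higher at day 15 and Crabp1 was not. Crabp2, which delivers the acid to the nucleus, read 135.8 undifferentiated and 392.4 at day 15, 2.89-fold higher with a log2 difference of 1.43. Of all measured genes 7.83% were higher by as much or more. It was the only member measured above the control bound on both arrays that differed by 2-fold or more.

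Crabp1, the cytosolic binding protein that holds the acid and aids its breakdown, read 174.2 and then 135.6, a ratio of 1.28 with a log2 difference of -0.33. The differences of the paired binding protein genes thus had opposite signs on these arrays. Whether they differ beyond the error of an array was not tested, since no array was repeated.

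The acid-making dehydrogenases diverged by isoform. Aldh1a1 read 2.2 undifferentiated and 122.0 at day 15, at least 3.43-fold higher with a log2 difference of 2.92 as deposited and at least 1.42 with the dimmer signal raised to 35.6. It was not above the controls in undifferentiated cells and clearly above them at day 15. Aldh1a7, a close paralog beside it in the mouse, was also higher in its own probe set, with 24.1 and 182.1 (at least 5.12-fold), and cross-hybridisation between the pair was not tested.

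Aldh1a2, the main acid-making enzyme of the early embryo, read 62.8 and 77.2, a ratio of 1.23 and a log2 difference of 0.24. That sign turned with the scaling of the arrays: the difference was -0.021 after quantile normalization and -0.074 after scaling on the hybridization controls. Its direction is therefore not set by these arrays.

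Aldh1a3 was the only member with more than 1 probe set, and its 3 probe sets did not move one way. The brightest on average read 19.8 and 35.5, another 36.1 and 15.7, and the third 13.7 and 6.7, with log2 differences of 0.52, -0.72 and -0.39. All of these signals lay below 35.6 except the 36.1, so Aldh1a3 was near the level of the controls without target on both arrays. Over those controls the same kind of difference ran from -1.49 to 0.58 with no target present, a range that holds all 3 values.

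Stra6, the retinol uptake receptor gene named for its response to retinoic acid, read 23.0 and 17.6, below the controls on both arrays, with a log2 difference of -0.22 and no fold to give. Together with Aldh1a3 it makes 2 of the 9 genes whose representing probe set lay below 35.6 on both arrays.

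**Figure D2:**
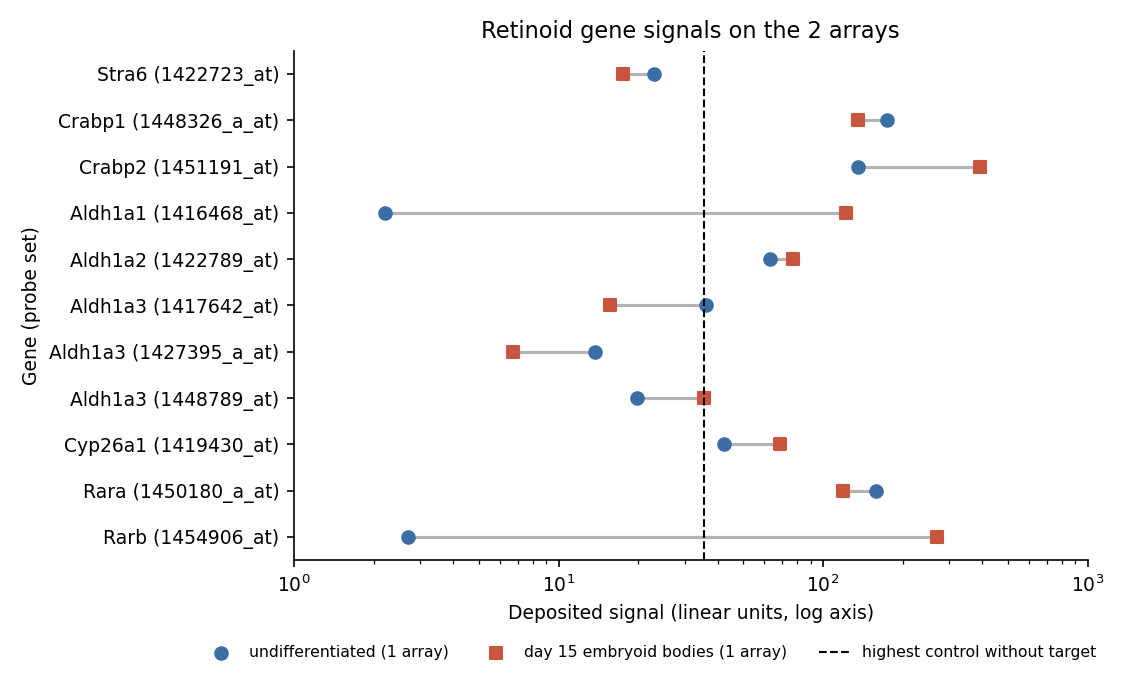
Deposited signal (linear units on a log axis) of each of the 11 member probe sets in undifferentiated cells (circles) and at day 15 (squares), 1 array each; the dashed line is the highest control without target, 35.6. Rarb runs from 2.7 to 269.6 and Aldh1a1 from 2.2 to 122.0, both across the line, and Crabp2 from 135.8 to 392.4 above it.

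A wider list of 65 retinoid genes was examined beside the members. It was chosen with earlier results of these data known, so its shares describe the list and test nothing. Of its genes 57 had a probe set naming them alone and 41 stood above the filter. Of those 41, 18 (43.9%) were 2-fold or more higher at day 15 and 6 (14.6%) as far lower, against 16.5% and 8.41% of all genes above the filter. Their median log2 difference was 0.53 and that of all genes above the filter 0.00052, but a filter at the 75th percentile brought the list to -0.049 over 20 genes, and with no filter the medians were 0.024 for the 57 genes and -0.024 for all measured genes. Some of the 41, such as Ttr, Dhrs3, Nr2f1 and Meis1, passed the filter only through their day 15 signal. Others, such as Rbp7, Adh7 and Hoxa3, passed it only through their undifferentiated signal. Adh7 and Hoxa3, counted among the 6 lower, were at least 1.78-fold and 1.72-fold lower when set against the control bound. Without the probe sets whose names carry an a, s or x suffix, which can detect more than 1 transcript, 11 of 31 were higher. With no filter 19 of 57 were higher and 7 lower, against 12.8% and 7.56% of all measured genes.

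Above the filter, transport genes held the largest share of movers, with 3 of 4 higher and 1 lower. All genes above the filter gave 16.5% and 8.41%. Ttr passed the filter only through its day 15 signal and Rbp7 only through its undifferentiated signal. The ranking depended on the filter. Without it 3 of 6 transport genes were higher and 1 lower, against 12.8% and 7.56% of all measured genes. Genes known to answer retinoic acid then held the larger share, with 8 of 15 higher and 3 lower. Ttr, which carries retinol-binding protein in blood and also marks visceral endoderm, read 2.7 and 567.0 (at least 15.9-fold higher) in its brightest probe set. Its other probe sets, all above the filter, read 3.2 and 198.3, 1.9 and 325.3, and 15.5 and 309.3. Rbp4, the retinol carrier of plasma, read 56.1 and 635.3 (11.3-fold higher). Fabp5, which can pass retinoic acid to another nuclear receptor, went from 2365.4 to 6618.7 (2.80-fold higher). Rbp7, a cellular retinol-binding protein gene, went from 99.8 to 25.0, at least 2.80-fold lower.

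Of 12 retinol and retinal enzymes above the filter, 4 (33.3%) were at least 2-fold higher and 1 (8.33%) lower. Among these, Dhrs3 passed the filter only through its day 15 signal and Adh7 only through its undifferentiated signal. Adh7 was the lower one, by at least 1.78-fold when set against the control bound. All genes above the filter gave 16.5% and 8.41%. With no filter 4 of 21 (19.0%) were higher and 2 lower, against 12.8% and 7.56% of all measured genes. Dhrs3, which reduces retinal back to retinol, read 5.0 and 174.4 (at least 4.90-fold higher). Rdh10, the enzyme that oxidises retinol to retinal in the embryo, read 212.4 and 539.1 (2.54-fold higher), and its other probe set 57.0 and 129.4. Both enzymes of that opposed pair were thus brighter at day 15.

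On the higher side, the remaining enzymes past 2-fold above the filter were Dhrs7 (83.9 and 292.5) and Rdh14 (114.5 and 323.5), short-chain dehydrogenases. On the lower side stood the alcohol dehydrogenase gene Adh7 (63.4 and 19.1), which is named here after its value was seen. Its call rests on the damped log2 scale, and when set against the control bound Adh7 was at least 1.78-fold lower. Adh4, another alcohol dehydrogenase gene and likewise named afterwards, lay below the filter at 39.3 and 3.1 (at least 1.10-fold lower). Cyp1b1, a cytochrome P450 that can oxidise retinoids among other substrates, read 44.0 and 1994.5, 45.3-fold higher. Aldh8a1, another retinaldehyde dehydrogenase gene, was within 2-fold (54.0 and 41.2). Cyp26b1, the close relative of Cyp26a1, lay below the filter at 36.6 and 33.8.

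Receptor genes other than Rarb stayed within 2-fold on the deposited scaling. Rarg, the gamma receptor gene, read 1208.6 undifferentiated and 704.7 at day 15 (log2 difference -0.76), and its other probe set 499.9 and 349.3. The retinoid X receptor genes read 306.8 and 201.9 for Rxra, 440.0 and 422.7 for Rxrb, and 89.1 and 47.1 for Rxrg. Another Rxra probe set above the filter had the opposite direction (69.8 and 120.7). Among the 6 receptor genes of both families, Rarb alone was past 2-fold as deposited and after quantile normalization. Scaling on the hybridization controls kept Rarb at 3.57 and put Rarg (-1.15) and Rxrg (-1.02) past 2-fold on the lower side.

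Other nuclear factors of this class diverged. Nr2f1, an orphan receptor that can compete for retinoid response elements, read 9.3 and 426.2 (at least 12.0-fold higher), and the corepressor gene Nrip1 96.6 and 369.4 (3.82-fold higher). The coactivator gene Ncoa3 was 2.26-fold lower (911.3 and 402.9), although its other probe set hardly differed (506.5 and 491.5). Zfp423, a cofactor of retinoic acid receptors, read 589.6 and 329.4 (log2 difference -0.81, but -1.18 with scaling on the hybridization controls). In all, 2 of 11 above the filter (18.2%) were at least 2-fold higher and 1 (9.09%) lower. These shares were near the 16.5% and 8.41% of all genes above the filter. Below the filter, Nr2f2, the close relative of Nr2f1 and named after its value was seen, read 5.2 and 113.5 (at least 3.19-fold higher), which makes 3 of 12 higher (25.0%) with no filter against 12.8% of all measured genes.

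Genes known to answer retinoic acid were mostly brighter at day 15. Of 12 above the filter, 8 (66.7%) were at least 2-fold higher and 3 (25.0%) lower, against 16.5% and 8.41% of all genes there. Among these, Meis1, Hoxb4, Foxa1 and Rarres2 passed the filter only through their day 15 signal, and Hoxa3 only through its undifferentiated signal. With no filter 8 of 15 (53.3%) were higher and 3 lower, against 12.8% and 7.56% of all measured genes. The homeobox partner genes Meis2 and Meis1 read 40.6 and 2061.5 (50.8-fold higher) and 15.2 and 353.0 (at least 9.92-fold), the clock-linked repressor gene Bhlhe40 148.1 and 1265.7 (8.55-fold), and the transglutaminase gene Tgm2 64.2 and 445.4 (6.94-fold). The Meis2 fold divides by a signal just above 35.6, and its other probe sets above the filter read 28.3 and 736.5, and 30.3 and 508.8. Other Meis1 probe sets, below the filter, read 26.6 and 47.2, and 42.8 and 19.1. Other Tgm2 probe sets above the filter read 39.9 and 429.1, 54.0 and 354.7, 36.7 and 143.9, and 49.0 and 119.6. A further Tgm2 probe set, below the filter, read 2.9 and 2.1.

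The other genes of that class past 2-fold were named after their values were seen. Lower were the hindbrain patterning factor gene Gbx2 (583.3 and 136.1) and the stem cell nuclear receptor gene Nr0b1 (2055.9 and 932.7). Hoxa3 (61.1 and 21.2) was also called lower, but by at least 1.72-fold when set against the control bound. Higher were Foxa1, Hoxb4, Stra8 and Rarres2. Stra8, the gatekeeper of meiotic entry, read 53.7 and 157.3. The members of this class answer other signals as well, so their counts do not measure retinoic acid.

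**Figure D3:**
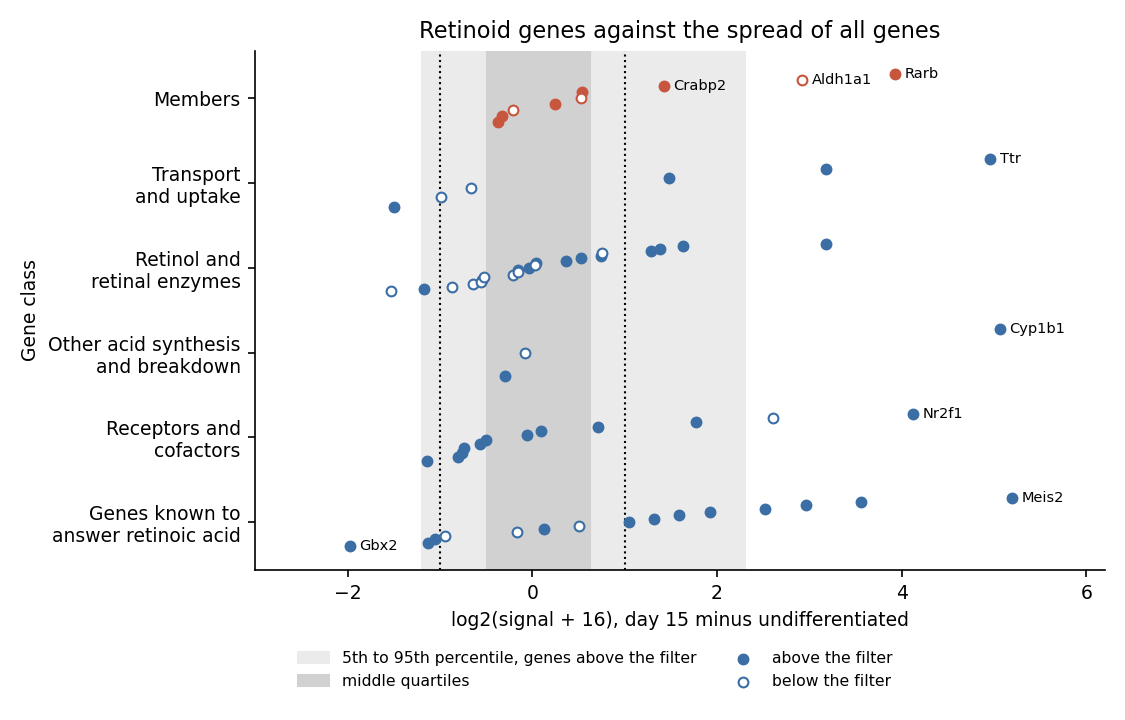
Log2 difference of log2(signal + 16), day 15 minus undifferentiated, for the 9 member genes (red) and the 57 measured genes of the wider list (blue) by class; filled points passed the expression filter, dotted lines mark 2-fold, and grey bands give the 5th to 95th percentiles and the middle quartiles of the 11960 genes above the filter. Rarb is drawn at 3.93 and Aldh1a1 at 2.92, but with their undifferentiated signals raised to 35.6 they are at least 2.47 and 1.42, where the 95th percentile is 2.30 and Crabp2, measured on both arrays, lies at 1.43.

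Markers of several cell types moved with these genes, and their part in the differences was not tested. The counts below stand beside 12.8% of all measured genes at least 2-fold higher and 7.56% as far lower. Fibroblast and feeder markers passed 2-fold upwards for 11 of 12, with a summed signal of 5361 undifferentiated and 53547 at day 15, and 5 of them lay below 35.6 in undifferentiated cells, Col1a1 among them at 17.2. Smooth muscle markers were higher for 5 of 6 (1231 and 28919), visceral endoderm and yolk sac markers for 6 of 12 (465.2 and 3822) and epicardium and mesothelium markers, a site of Aldh1a2 expression in the embryo, for 4 of 6 (297.5 and 1239). Neural markers were higher for 2 and lower for 2 of 9 measured (1289 and 994.4). Pluripotency markers were lower for 7 of 11 (59314 and 32851), and 0 of them lay below 35.6 at day 15, so the day 15 RNA still held stem cell transcripts.

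Under other settings Rarb, Aldh1a1 and Crabp2 kept a positive difference past 2-fold in each of the 7 alternatives run for them. Of these, 1, the floor at 35.6, was added after the data were seen. The mean over probe sets and the removal of suffixed probe sets could not change these genes, each with a single probe set without such a suffix. Nor could the floor change Crabp2, whose signals both lay above it. Their lowest values were 2.32, 1.42 and 1.05 on the log2 scale, and the highest 6.19, 5.26 and 1.52. Scaling on the hybridization controls moved the median gene by -0.36 and quantile normalization moved it by -0.13. Of genes past 2-fold, the share on the higher side was 66.3% as deposited, 37.7% with the first and 54.6% with the second. Crabp2 lay nearest to the 2-fold line under the first, at 1.05.

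**Figure D4:**
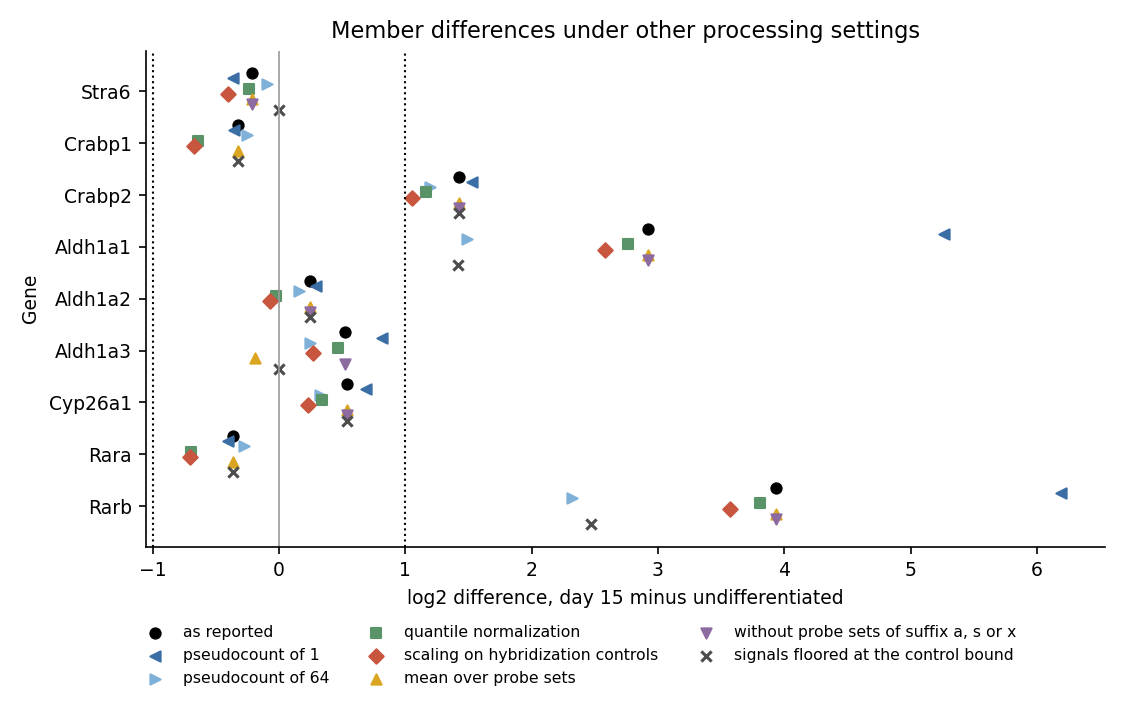
Log2 difference (day 15 minus undifferentiated) of each member gene as reported (black circles) and under the other processing settings (coloured symbols); dotted lines mark 2-fold. Rarb, Aldh1a1 and Crabp2 stay to the right of the 2-fold line in all settings drawn, of which the probe set settings cannot move them. The pseudocount moves Rarb from 2.32 to 6.19, and Aldh1a2 crosses 0.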

How the data were processed

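Total RNA was labelled as biotinylated cRNA and hybridised to Affymetrix arrays, per the labels' protocols. The deposited values are linear signal intensity for 45101 probe sets, and their summarisation software and genome build are not given in the sources used here. With 2% trimmed at either end, the mean was 250.0 for each array, so they had been scaled. The 64 control probe sets were set aside. Genes were assigned from the platform annotation and RefSeq gene identifiers (GRCm38.p6), 34741 by identifier, 143 by symbol and 61 unplaced. Those naming several genes (932) or unlisted (9160) were left out.

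Signals were taken to log2(signal + 16). The brightest probe set on average stood for a gene, and genes at or above the median mean were kept. Arrays limit precision by their number. The members, the wider list and the rule for named genes (all members, up to 4 genes of each class by size, and the receptor genes) were chosen with earlier results of these data known. The bound of 35.6 was also set after the values were seen. Code ran in Python 3.11.15 with pandas 2.3.3 and was tested on simulated data.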

Additional observations from a re-analysis of the deposited data

How the results depend on the processing

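Of 156 values recomputed under other settings, 129 kept their size within the limits used, 27 moved and none changed the sign of a difference past 2-fold. The limit for a log2 difference was 0.53, the SD between probe sets of 1 gene over 5157 genes, which holds no variation between cultures. Differences of members within 2-fold were about that size or smaller, so staying within it says little of them. The wider list's median counted as kept at 0.024 with no filter, and so did 1358 genes higher with scaling on the hybridization controls, against 1975. The mean over probe sets could not change a gene with a single probe set. The pseudocount moved Rarb and Aldh1a1 to 6.19 and 5.26 at 1, and to 2.32 and 1.49 at 64, and a floor at 35.6, added after the data were seen, gave 2.47 and 1.42. The mean over probe sets put Aldh1a3 at -0.19. Members above the filter and higher, by gene and by probe set alike, numbered 1 with a pseudocount of 1 (Rarb then missed the filter), 1 under the filter at the 75th percentile and 1 at 4-fold. The wider list had 11 higher without probe sets suffixed a, s or x, 5 with the filter at the 75th percentile, where its median was -0.049, and 9 at 4-fold. It had 3 lower with a pseudocount of 64, with the mean over probe sets and under the 75th percentile filter, and 0 at 4-fold. Of all genes, 907 were higher with the filter at the 75th percentile, 3132 at 1.5-fold and 782 at 4-fold, while 2248 were lower with scaling on the hybridization controls, 2514 at 1.5-fold and 68 at 4-fold. The higher filter and the other fold sizes change these counts by their construction, and for the rest the cause was not tested. Signals under 35.6 cannot be told from controls without target. No paired analysis was possible because each condition has 1 array.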

Other observations

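Over the whole RefSeq table, 31 genes held a DR5 in a start window, and 11 of them had a probe set that names them alone. Above the filter stood 5 of those, of which Rarb was at least 2-fold higher at day 15, 0 were lower and 4 were within 2-fold. Beside Cyp26a1 these were the biliverdin reductase gene Blvrb (247.8 and 331.3), the synaptic membrane protein gene Syndig1 (100.1 and 120.1) and the B cell activating factor gene Tnfsf13b (38.5 and 46.1). Their log2 differences were 0.40, 0.23 and 0.19. None of the wider retinoid list held a DR5 in its windows. Since 16.5% of all genes above the filter were at least 2-fold higher, 1 of 5 is near that share.

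The other 6 lay below the filter. Gm14133 (1.5 and 40.1) and the platelet chemokine gene Ppbp (14.5 and 68.9) were past 2-fold on log2(signal + 16), by at least 1.13-fold and 1.94-fold when set against the control bound. The cilia protein gene Cfap45 read 18.1 and 40.9, the embryonic globin gene Hbb-y 0.5 and 13.5, the prokineticin receptor gene Prokr2 5.2 and 12.0 and the serine protease gene Prss27 17.8 and 16.8, the last 3 of these under the controls without target on both arrays. Over all 11 measured genes, 3 were past 2-fold on the higher side and 0 on the lower, where 12.8% and 7.56% of all measured genes were.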
